A study of Papio anubis and Macaca mulatta with 6 samples.

Results

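Perivascular mural cells were examined in single-cell transcriptomes of immature primate testes as those barcodes that carried pericyte genes and lacked endothelial ones. Barcodes with at least 1000 UMIs (unique molecular identifiers, which count captured RNA molecules) were taken from all libraries, and a barcode was kept when it held a UMI of at least 2 of RGS5, NOTCH3, HIGD1B, KCNJ8, ABCC9 and CSPG4 and of fewer than 2 of the endothelial genes VWF, CLDN5, CDH5, KDR, TIE1 and PECAM1. This pericyte gate kept 295 of 44341 barcodes, of which 125 of 21693 came from the baboon and 170 of 22648 from the rhesus macaque. The testes came from olive baboons (Papio anubis) and rhesus macaques (Macaca mulatta), 2 animals of each species, and were collected at necropsy. The animals had been euthanized for a purpose outside the study, and the paper names no treatment of them. The ages stated for the species differ between the sources used here and no source ties an age to an animal, so age was not used. The paper lists a newborn and an older baboon, and rhesus macaques whose ages also differ, so age separates the animals within a species. Baboon 1 gave the libraries A and B, baboon 2 and rhesus 1 gave 1 library each, and rhesus 2 gave the libraries A and B. The 10x Genomics chemistry for 3′ ends was version 3 for baboon 2 and version 2 for the rest. A collagenase step and a wash that discards interstitial cells preceded the trypsin digestion, and the vessels of the testis lie in the interstitium, so the share of pericyte-gated barcodes is not the abundance of these cells in the tissue.

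Pericytes wrap the endothelium of capillaries and small venules within a shared basement membrane, and with the smooth muscle cells of larger vessels they form the mural cells. Endothelial PDGFB recruits them through the receptor PDGFRB, and Notch ligands on the endothelium act on NOTCH3 in the mural cell and switch on HES and HEY genes. Of the gate genes, RGS5 damps signaling by G protein-coupled receptors, KCNJ8 and ABCC9 encode the pore and the regulatory subunit of a potassium channel that closes with ATP and sets vessel tone, CSPG4 encodes the NG2 proteoglycan, and HIGD1B is related to hypoxia-induced mitochondrial proteins. In the testis, perivascular cells have been studied as a source of Leydig cells.

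Because most gated barcodes of the rhesus macaque carried RGS5, the reference sequence just before the start of that gene is shown. It was read from the RefSeq annotation of Mmul_10, the build of the rhesus files, over the 250 bases before the annotated gene start, 5′ to 3′ on the minus strand, on which the gene lies (chr1:20728557-20728806). Capitals would mark TGGGAA on either strand, the core letters bound by RBPJ, the DNA-binding partner of Notch.
RGS5: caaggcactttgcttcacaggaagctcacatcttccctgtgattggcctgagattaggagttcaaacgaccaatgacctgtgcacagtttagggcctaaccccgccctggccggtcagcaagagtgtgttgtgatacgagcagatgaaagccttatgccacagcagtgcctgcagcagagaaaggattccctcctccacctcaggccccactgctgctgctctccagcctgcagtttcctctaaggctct
Neither these letters nor a CArG box, the serum response element of contractile genes, were in this window. They occurred in 19.7% and 1.03% of the 20774 windows of the same length before protein-coding genes, and their absence says nothing of the factors. KCNJ8 and ABCC9 are neighbours on rhesus chromosome 11, with 23618 bases between them.

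The share of gated barcodes differed more between the rhesus animals than between the baboons. In baboon 1, 68 of 14146 barcodes passed (0.481%, exact 95% binomial interval 0.373 to 0.609%), with 52 of 9125 in library A and 16 of 5021 in library B. In baboon 2, 57 of 7547 passed (0.755%, 0.573 to 0.977%). In rhesus 1, 5 of 10403 passed (0.0481%, 0.0156 to 0.112%), and in rhesus 2, 165 of 12245 passed (1.35%, 1.15 to 1.57%), with 79 of 6348 in library A and 86 of 5897 in library B. Rhesus 2 thus supplied 97.1% of the rhesus barcodes, and any rhesus mean over animals sets 5 barcodes with 10673 UMIs beside 165 barcodes with 334754 UMIs. The order of rhesus 2, its libraries pooled, and baboon 2 depended on the gate. With at least 3 of the 6 genes rhesus 2 stood at 0.441% (0.504% in library A and 0.373% in library B), beside 0.464% in baboon 2, and with a gate without RGS5 to 0.474%, beside 0.570%. These intervals cover counting error only, and with 2 animals a species the difference between animals was not tested. The endothelial-gated barcodes, which held at least 2 of the 6 endothelial genes and fewer than 2 of the 6 pericyte genes, moved the same way in the rhesus macaque. They numbered 42 in rhesus 1 and 486 in rhesus 2. No gated barcode sequence was shared between libraries, and of all barcodes at most 1.58% of the smaller library's were shared by a pair of libraries.

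**Figure D1:**
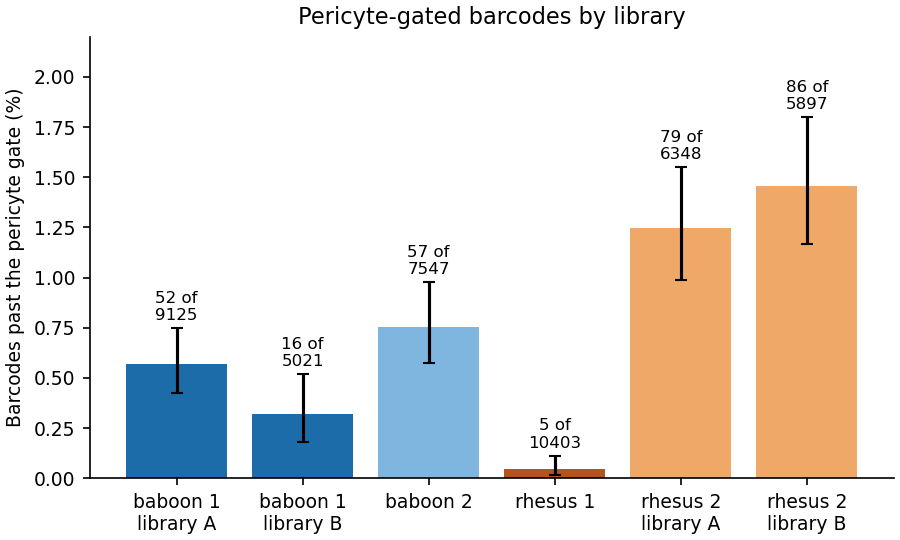
Percent of barcodes of at least 1000 UMIs that passed the pericyte gate, by library, with the exact 95% binomial interval and the counts above each bar. Rhesus 1 stands lowest with 5 of 10403, and both libraries of rhesus 2 stand above all baboon libraries under this gate.

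The members were chosen by UMIs of the 6 pericyte and 6 endothelial genes in each barcode, so the gate genes are no finding and their values are given as a description. RGS5 stood at 5729.9 and 2614 CPM (UMIs of a gene scaled to a common total of UMIs in the sum of barcodes) in the summed gated barcodes of baboon 1 and baboon 2, against 25.4 and 8.42 in all their other barcodes. The rhesus animals had 7121 and 2662 CPM, against 14.2 and 53.6. HIGD1B stood at 577 and 549 in the baboons and at 1031 and 908 in the rhesus macaques, and it was below 3 CPM in the other barcodes of every animal. The species parted on NOTCH3, which stood at 625 and 511 in the gated baboon barcodes but had no UMI in rhesus 1 and 3 UMIs in the 165 barcodes of rhesus 2. CSPG4 showed the same split, with 29 and 28 UMIs in the baboons and 0 and 3 in the rhesus macaques. The NOTCH3 counts were low across all rhesus barcodes, with 4 and 19 UMIs outside the gate against 128 and 232 in the baboons, and the species differ in genome annotation, so that expression and the counting of the gene cannot be told apart.

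As a result, the gate was met by different pairs of genes. RGS5 with NOTCH3 and no other gate gene was the most frequent set in the baboon (20 of 125), and RGS5 with HIGD1B in the rhesus macaque (78 of 170), followed by RGS5, HIGD1B and KCNJ8 (48 of 170). Exactly 2 gate genes were found in 49 of the 125 baboon barcodes and in 115 of the 170 rhesus barcodes, just inside the threshold. Just outside it, 605 baboon and 1267 rhesus barcodes held a UMI of 1 gate gene. A further 23 baboon and 5 rhesus barcodes met the pericyte condition but held at least 2 endothelial genes. These were not gated and were counted among all other barcodes and, between classes, among the barcodes that passed no gate. No doublet caller was run.

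**Figure D2:**
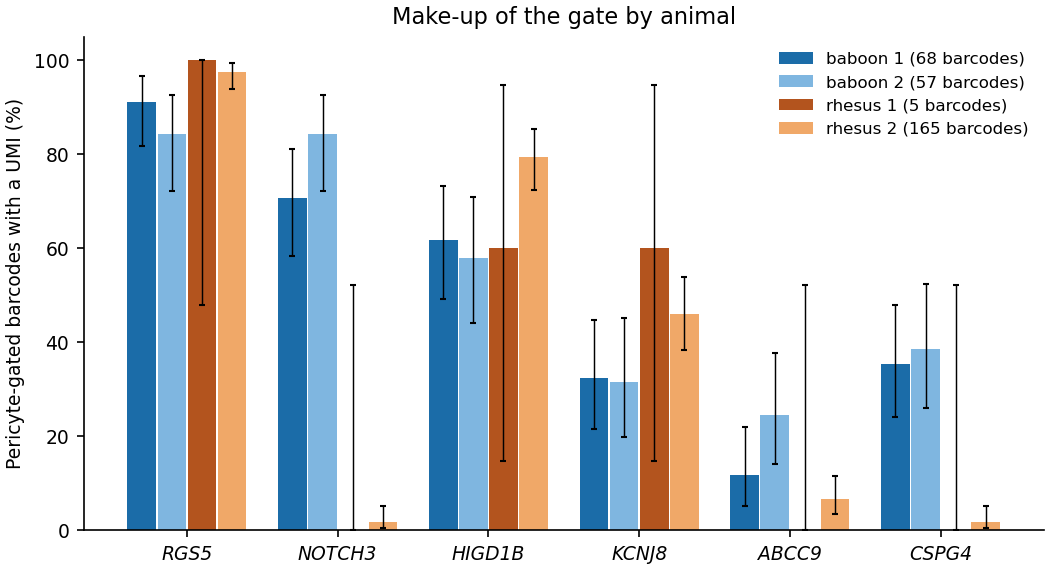
Percent of pericyte-gated barcodes with a UMI of each gate gene, by animal, with exact 95% binomial intervals. RGS5 was found in most barcodes of every animal, and NOTCH3 and CSPG4 in few or none of the rhesus barcodes.

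RGS5 outside the gate also differed between animals. Contractile-gated barcodes held at least 2 of ACTA2, MYH11, TAGLN, CNN1, ACTG2 and LMOD1, and fewer than 2 pericyte and fewer than 2 endothelial genes. Stroma-gated barcodes held at least 2 of DCN, LUM, PDGFRA, DPT, C7 and OGN, and fewer than 2 genes of each other gate. RGS5 was found in 17.0% of the rhesus 2 barcodes that passed no gate and in 11.2% of its contractile-gated barcodes. The share was 2.26% in the endothelial-gated and 1.94% in the stroma-gated barcodes of rhesus 2. In the barcodes of rhesus 1 and of the baboons that passed no gate, the share was 1.47%, 0.679% and 1.34%. Thinned to 1000 UMIs a barcode, the share in rhesus 2 was 9.32% without a gate and 0.412% in the endothelial-gated barcodes. Droplets of 10 to 100 UMIs, which hold mainly free RNA, had 93.9 CPM of RGS5 in rhesus 2 and 24.5 in rhesus 1. The part of free RNA in the RGS5 of ungated barcodes was not tested.

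Genes that the gate did not use were compared between gated and all other barcodes by summing UMIs per animal, with edgeR's quasi-likelihood test and adjusted p-values over all genes tested. In the baboon, 387 of 15391 genes were higher in the gated barcodes and 94 were lower (2.51% and 0.611% of the genes tested, 3.13% together). With the animal as a block, since both sums come from the same animal, the counts were 762 and 1018, and 472 of the 481 calls were made in both fits. In the rhesus macaque, 143 of 11940 genes were higher and 50 lower (1.20% and 0.419%, 1.62% together), with 162 and 23 under the block and 127 of 193 calls made in both. With 5 gated barcodes in rhesus 1, a rhesus gene that missed the threshold, or a lower rhesus count of calls, does not show a smaller change than in the baboon. The median log2 fold change of all genes tested was -0.22 in the baboon and -0.31 in the rhesus macaque, and the fold changes below are read against it. Of the 143 rhesus genes that were higher, 66 had no UMI in the 5 gated barcodes of rhesus 1 and so rest on rhesus 2, while every baboon gene that was higher had UMIs in both animals. Of the genes that were lower, 4 baboon and 16 rhesus ones had no UMI in any gated barcode. The animals of a species differ in age and in library preparation or number, so these p-values measure the spread between 2 animals with all that separates them.

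Mural genes beyond the gate were higher in the gated baboon barcodes than in all other barcodes. Values against the endothelial-gated barcodes are given below. Of 30 further mural genes, 29 were found and 25 tested in the baboon, where 19 were higher, against 2.51% of all genes, and none lower, with a median log2 fold change of 3.76 against -0.22 over all genes. PDGFRB stood at 643 and 348 CPM in the gated barcodes of baboon 1 and baboon 2, against 5.31 and 12.1 in the other barcodes, without overlap (log2 fold change 5.68 ± 0.52 SE, adjusted p = 0.000666). NDUFA4L2, a mitochondrial subunit gene induced by hypoxia, stood at 339 and 309 against 2.27 and 3.02 (6.77 ± 0.38, adjusted p = 0.000158). PTP4A3, a phosphatase gene, stood at 339 and 369 against 11.5 and 10.9 (4.81 ± 0.33). MCAM, an adhesion molecule of vessel walls, stood at 655 and 313 against 43.3 and 19.8 (3.75 ± 0.53, adjusted p = 0.00498). FOXS1, a forkhead factor of mural cells, stood at 149 and 85.9 against 2.70 and 3.11. These genes were high in both baboons and the groups stayed far apart.

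In the rhesus macaque, all 30 of the mural genes were found and 27 tested, of which 9 were higher, against 1.20% of all genes, and none lower, with a median log2 fold change of 1.41 against -0.31 over all genes. COX4I2, the gene of a lung- and vessel-enriched isoform of a cytochrome c oxidase subunit, led the genes with enough UMIs in both animals. It stood at 4778 and 5607 CPM in the gated barcodes of rhesus 1 and rhesus 2, against 33.8 and 41.0 in the other barcodes (log2 fold change 6.64 ± 1.04 SE, adjusted p = 1.08e-07, and 0.00325 with the animal block). It was found in all 5 gated barcodes of rhesus 1 and in 95.8% of the 165 of rhesus 2, against 3.55% and 3.32% of the barcodes that passed no gate. In rhesus 2 the ungated barcodes thus held RGS5 more often than COX4I2. The symbol COX4I2 was not found among the baboon genes and was not analysed here, and NDUFA4L2 had no UMI in any rhesus barcode class. PTP4A3 stood at 1124 and 323 against 18.2 and 29.1 (3.97 ± 0.67, adjusted p = 1.24e-06). PDGFRB stood at 1686 and 1090 against 64.6 and 137 (3.20 ± 0.75, adjusted p = 0.00283), but its adjusted p was 0.226 with the animal block. MCAM (2.37) was also past the threshold without the block and not with it, where its adjusted p was 0.408. It stood at 1405 and 191 against 37.1 and 90.8.

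Of the genes tested, 97 in the rhesus macaque and 1121 in the baboon had at least 20 UMIs in the gated barcodes of both animals. Among the others of those 97, IGFBP7, a secreted IGF-binding protein of vessel walls, stood at 5247 and 3627 CPM in the gated barcodes against 1392 and 802, and CALD1 (caldesmon, an actin-binding protein) at 1874 and 1601 against 358 and 451. Both were higher in both animals but missed the threshold (adjusted p = 0.672 and 0.469). IMPA2, an inositol monophosphatase gene that the gate did not use, was higher in both species. In the baboon it stood at 309 and 421 CPM in the gated barcodes against 4.17 and 8.83 (5.65 ± 0.45, adjusted p = 0.000421). The rhesus IMPA2 stood at 843 and 863 against 12.9 and 26.1 (5.06 ± 0.76, adjusted p = 2.08e-08, and 0.00511 with the block).

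**Figure D3:**
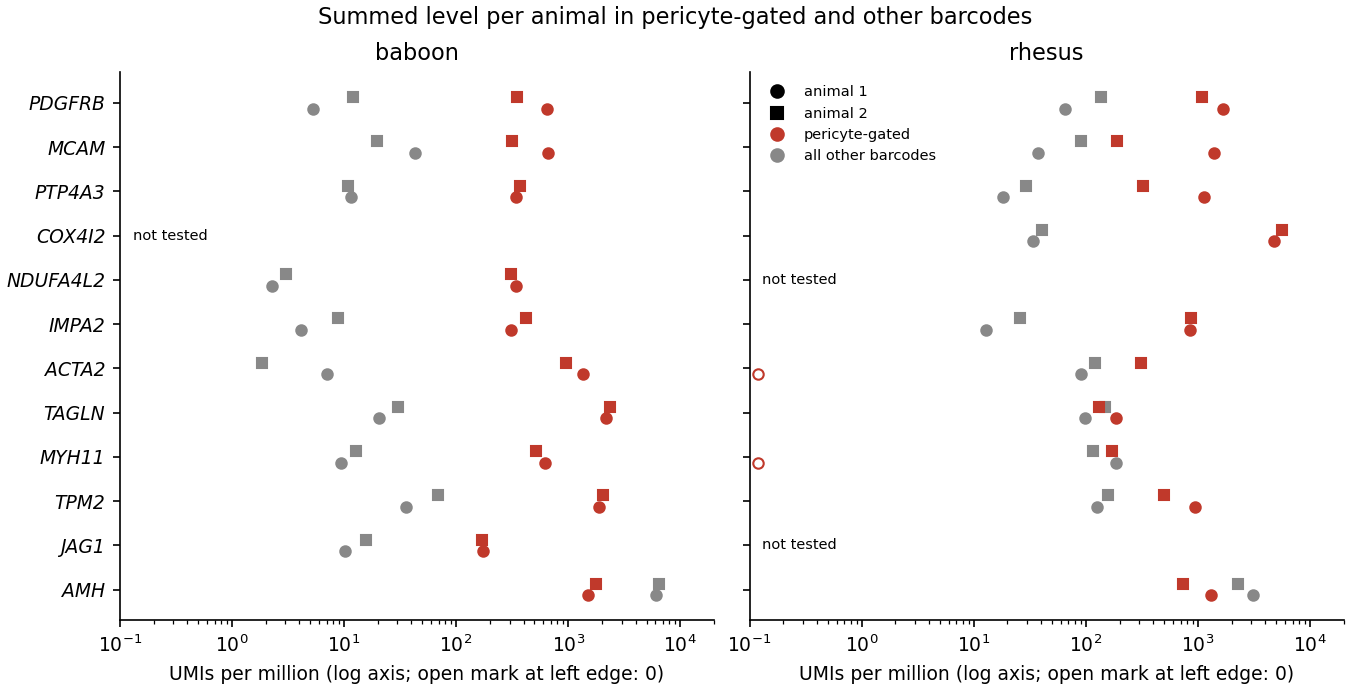
CPM on a log axis in the summed pericyte-gated barcodes (red) and all other barcodes (grey) of each animal, for mural, contractile, Notch ligand and Sertoli genes. The contractile genes ACTA2, TAGLN and MYH11 separate the groups in both baboons and overlap or are at 0 in the rhesus macaque, and "not tested" marks genes absent from a species' list or too low to test.

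Contractile genes were called in the baboon and, but for SMTN, not in the rhesus macaque. In the baboon, 16 of 24 tested genes of the contractile list were higher, against 2.51% of all genes, and none lower, with a median log2 fold change of 4.51. ACTA2, smooth muscle alpha-actin, had the largest fold change among the genes named by rule. It stood at 1351 and 966 CPM in the gated barcodes against 7.04 and 1.84 in the others (7.84 ± 0.74, adjusted p = 0.000728). TAGLN, an actin-binding protein of smooth muscle, stood at 2154 and 2348 against 20.6 and 30.0 (6.31 ± 0.40). MYH11, smooth muscle myosin heavy chain, stood at 625 and 519 against 9.36 and 12.9 (5.52 ± 0.36), and TPM2, a tropomyosin, at 1886 and 2061 against 35.8 and 68.4 (5.09 ± 0.42). RERGL, a Ras-related gene of vascular smooth muscle, was higher by 6.57 ± 0.74 on the log2 scale. In each of these the lowest gated value was above the highest other value.

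In the rhesus macaque, 1 of 22 tested contractile genes was higher (SMTN, smoothelin, 2.15, on 3 and 28 UMIs), against 1.20% of all genes, and none lower, with a median log2 fold change of -0.08 (-0.06 with the 1 gene that had no gated UMI set at 3 UMIs). ACTA2 had no UMI in the gated barcodes of rhesus 1 and stood at 311 CPM in those of rhesus 2, against 90.7 and 121 in the other barcodes (1.00 ± 0.61, adjusted p = 0.654). A count of 0 in rhesus 1 allows up to 281 CPM. TAGLN stood at 187 and 131 against 98.0 and 147 and did not differ beyond the spread (-0.08, adjusted p = 0.997). MYH11 stood at 0 and 170 against 186 and 115 (-0.32, adjusted p = 0.949). CALD1 and TPM2, also of this list, had rhesus log2 fold changes of 1.20 to 1.94 and 1.52 to 1.83 over all settings. Both missed the threshold in the main fit, and each was called in 2 of 15 alternatives. Of 20 contractile genes with a gated UMI in both species, 8 had a fitted rhesus log2 fold change above 0. The background differed as well, since contractile-gated barcodes were 9.85% and 5.86% of the rhesus barcodes and 0.954% and 6.23% of the baboon barcodes. In the levels of the gated barcodes themselves, ACTA2, TAGLN and MYH11 were lower in both rhesus animals than in either baboon. With 2 animals a species the smallest p an exact permutation test allows is 0.333, and no other test of the difference between species was run. Species, genome annotation and age cannot be told apart.

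The number of contractile genes with a UMI varied among single barcodes, which also differed in depth (1024 to 29956 UMIs in the gated baboon barcodes). Of the endothelial-gated barcodes, 201 of 233 in the baboon and 460 of 528 in the rhesus macaque held none of the 6 genes named next, and 3 and 12 held 2 or more. The parts of depth and free RNA in this spread were not tested. Of the 125 gated baboon barcodes, 45 held no UMI of ACTA2, MYH11, TAGLN, CNN1, ACTG2 or LMOD1, 27 held 1 of the 6 genes and 53 (42.4%) held 2 or more, among them 7 with all 6. Of the 170 gated rhesus barcodes, 101 held none, 50 held 1 and 19 (11.2%) held 2 or more. Thinned to 1000 UMIs, the share with 2 or more was 33.8% of 68 barcodes in baboon 1 (exact 95% interval 22.8 to 46.3%) and 36.8% of 57 in baboon 2 (24.4 to 50.7%). It was 0 of 5 in rhesus 1 (0 to 52.2%) and 11 of 165 in rhesus 2 (6.67%, 3.37 to 11.6%), so the rhesus value is that of 1 animal. These intervals cover counting error only, and the difference between species was not tested.

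**Figure D4:**
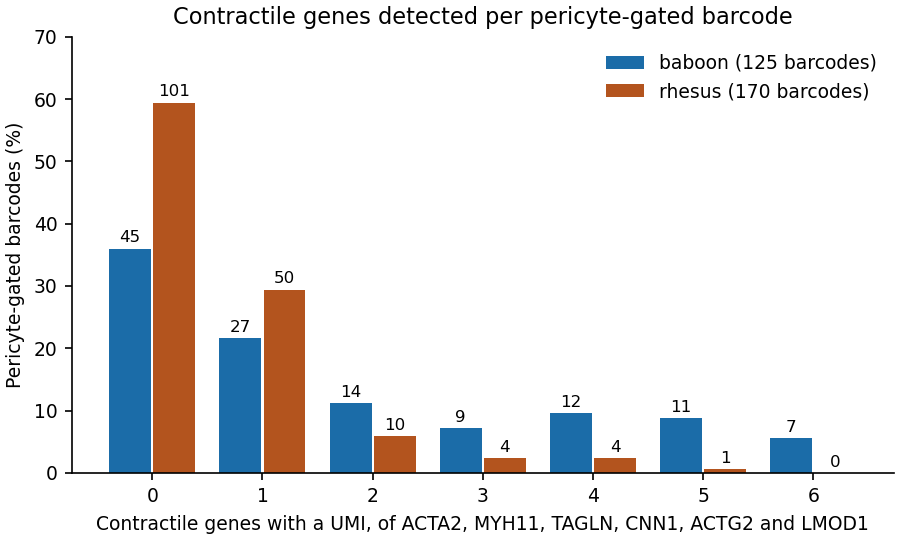
Percent of pericyte-gated barcodes by the number of contractile genes (of 6) with a UMI, before thinning, with the count above each bar. The baboon barcodes spread from 45 with none to 7 with all 6, and most of the 170 rhesus barcodes held none (101) or 1 (50).

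Genes of vessel tone and ion transport were next. Of the list of vasoactive receptors and cGMP signaling, 11 of 21 tested genes were higher in the baboon and 3 of 16 in the rhesus macaque, against 2.51% and 1.20% of all genes, and none was lower. GUCY1B1, a subunit of the nitric oxide receptor guanylate cyclase, stood at 208 and 270.5 CPM against 57.9 and 87.1 in the baboon (1.56 ± 0.33) and at 187 and 200 against 35.7 and 32.4 in the rhesus macaque (2.24 ± 0.59), where its adjusted p was 0.0138 without and 0.342 with the block. EDNRA, the endothelin receptor, stood at 137 and 55.8 against 3.55 and 4.98 in the baboon (4.30 ± 0.53). PTGIR, the prostacyclin receptor, was higher in both species, by 4.50 ± 0.64 in the baboon and 3.07 ± 0.64 in the rhesus macaque. RGS16, a relative of the gate gene RGS5, stood at 208 and 219 against 3.06 and 6.43 in the baboon. Of the ion channel and transport genes, 6 of 15 were higher in the baboon and 4 of 13 in the rhesus macaque, beside the same shares of all genes. SLC12A2, a sodium-potassium-chloride cotransporter, was higher in both species with and without the block, on 2 and 14 UMIs in the rhesus macaque.

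In the Notch pathway, 5 of 14 tested genes were higher in the baboon (JAG1, HES4, HEYL, NRARP and MAML2) and 1 of 13 in the rhesus macaque (HES4), against 2.51% and 1.20% of all genes, and none was lower. None of these 5 baboon genes passed the threshold against endothelial-gated barcodes without the block, as given below. JAG1, a ligand, stood at 173 and 172 CPM in the gated baboon barcodes against 10.3 and 15.7 (3.56 ± 0.36, adjusted p = 0.000893). The target genes HES4 and HEYL stood at 125 and 155 against 3.06 and 7.15, and at 107 and 94.4 against 14.2 and 12.9. The rhesus JAG1 had no UMI in the gated barcodes and 0.415 and 0.745 CPM in the other barcodes of rhesus 1 and rhesus 2, and HES4 rested on 15 UMIs of rhesus 2. HES1, a general Notch target, missed the threshold in the baboon (0.89, adjusted p = 0.324) and in the rhesus macaque (1.54, adjusted p = 0.294). Of the PDGF and VEGF list, PDGFRB, ANGPT2 and ANGPTL4 of 16 genes were higher in the baboon and PDGFRB of 14 in the rhesus macaque, beside the same shares of all genes. ANGPTL4, a secreted lipase inhibitor, stood at 149 and 112 against 4.91 and 15.1 in the baboon. PGF, placental growth factor, stood at 131 and 167 against 1.93 and 2.81 there (5.81 ± 0.41).

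The transcription factors of the mural list were higher for 11 of 24 tested genes in the baboon, against 2.51% of all genes, and for MEF2C of 20 in the rhesus macaque, against 1.20%. MEF2C stood at 768 and 725 CPM against 109 and 106 in the baboon (2.62 ± 0.30) and at 749.6 and 565 against 67.0 and 107 in the rhesus macaque (2.40 ± 0.67, adjusted p = 0.0255, and 0.545 with the block). EBF1, a factor of pericyte and adipose lineages, stood at 595 and 382 against 23.3 and 60.5 in the baboon. Of the integrin and adhesion list, 10 of 23 genes were higher in the baboon and 6 of 18 in the rhesus macaque, beside the same shares of all genes, including the gap junction gene GJA4 in both (4.88 and 4.58) and the caveolar gene CAV1 (3.54 and 2.26, the latter on UMIs of rhesus 2 only and with an adjusted p of 0.866 under the block). Of the basement membrane list, 3 of 17 were higher in the baboon and none of 14 in the rhesus macaque, beside the same shares, with COL4A1 at 274 and 391 against 55.9 and 73.4 in the baboon (2.199 ± 0.32). Of the fibrillar matrix list, COL6A2 and BGN of 17 were higher in the baboon. LUM, a stromal proteoglycan without a UMI in the gated barcodes, was lower of 20 in the rhesus macaque, where 0.419% of all genes were lower. Its adjusted p was 0.282 with the block. Of the growth factor list, 3 of 19 (IGFBP7 and NTF3 among them) were higher in the baboon, and AGT was higher and IGFBP4 and SFRP2 lower of 21 in the rhesus macaque, beside the same shares. The gated barcodes of rhesus 1 held no UMI of these 3 genes and those of rhesus 2 held 22 of AGT and 1 each of IGFBP4 and SFRP2, whose adjusted p was 0.0557 and 0.0921 with the block. Of the TGF-beta list, TGFBR2 of 17 was higher in the baboon and none of 16 in the rhesus macaque, both near those shares of all genes.

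Sertoli genes, the markers of the most abundant cells of the immature tubule, were lower in the baboon. There, 5 of 12 tested Sertoli genes (AMH, INHA, BEX1, KRT18 and KRT8) were lower, against 0.611% of all genes, and none higher. AMH, the Sertoli cell hormone, stood at 1488 and 1756 CPM in the gated barcodes against 6022 and 6477 (-2.12 ± 0.33, adjusted p = 0.00946), and INHA, the inhibin alpha subunit, at 155 and 112 against 612 and 389.8 (-2.10 ± 0.38). ATP1B1, a sodium pump subunit, stood at 244 and 296 against 889 and 986, BEX1 at 161 and 137 against 602 and 332, and PLA2G1B, a phospholipase, at 405 and 738 against 1495 and 2024. The AMH that remained was found in 55.9% and 50.9% of the gated baboon barcodes, beside 47.7% and 50.0% of the endothelial-gated ones, and the droplets of 10 to 100 UMIs held 5519 and 5332 CPM of AMH. Thinned to 1000 UMIs, the AMH shares were 41.2% and 28.1% in the gated and 23.4% and 24.6% in the endothelial-gated barcodes. The part of free Sertoli RNA in these values was not tested. In the rhesus macaque none of 12 Sertoli genes passed, which is near the background share, as 0.419% of all genes were lower. AMH stood there at 1312 and 735 against 3085 and 2281 (-2.10, adjusted p = 0.316). INSL3, the Leydig cell hormone, was lower there, at 187 and 77.7 against 2542 and 1024 (-4.64 ± 1.00, adjusted p = 0.000624, and 0.1304 with the block), and CYP17A1, a steroidogenic enzyme, had no UMI in the gated barcodes. Of the Leydig lineage list in the baboon, 2 of 15 genes were higher, against 2.51% of all genes. These were NES and NR2F2, both of which perivascular progenitors are known to express. HSD3B2 missed the threshold (1.28, adjusted p = 0.0839).

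Summed over its list, the macrophage level was 0 and 4.29 CPM in the gated barcodes of the baboons, against 30.4 and 47.4 in the others, with 10 of 11 genes found at 0. In the rhesus macaque it was 0 and 44.8 against 187 and 271, with 5 of 11 genes found at 0. LYZ of 10 tested was lower there, beside 0.419% of all genes (-3.75, adjusted p = 0.0187, and 0.694 with DESeq2), on 0 and 2 gated UMIs. Erythroid HBB was 0 and 4.29 against 66.2 and 80.4 in the baboon and 0 and 35.8 against 188 and 1661 in the rhesus macaque, lower in both species (adjusted p = 0.0571 in the rhesus macaque under the block). The sum of the stromal markers was 1583 and 2563 CPM in the gated baboon barcodes against 804 and 2132 in the others, and 1593 and 2231.5 against 6046.5 and 5129.7 in the rhesus macaque. Of 11 stromal markers tested in each species, none was called in the baboon. LUM and CFD were lower in the rhesus macaque, beside 0.419% of all genes, but not under the block (adjusted p = 0.282 and 0.765). The germ cell markers summed to 190.4 and 352 against 197 and 209.5 in the baboon and to 93.7 and 50.8 against 95.8 and 60.0 in the rhesus macaque. The endothelial markers outside the gate summed to 393 and 253 against 167 and 217 in the baboon and to 1031 and 308 against 336 and 815 in the rhesus macaque. The part of RNA of these cell types in the results was not tested. No lymphoid, glial or germ cell gene was called, but with 2 to 10 genes tested a list and 3.13% (baboon) and 1.62% (rhesus macaque) of all genes called, 0 calls is near the background share. Of the endothelial genes that the gate did not use, ESAM was the only one higher, in both species (in the rhesus macaque with an adjusted p of 0.156 under the block). The other 13 of 14 in the baboon and 10 of 11 in the rhesus macaque did not pass, beside 2.51% and 1.20% of all genes that were higher. Of the immediate early genes, which respond to dissociation, none of 16 in the baboon or 13 in the rhesus macaque was called, and none of the 17 cell cycle genes tested in either species, again near the background share. FOS stood at 2321 and 7701 CPM against 1245 and 5679 in the baboon.

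The gated barcodes were also set against the other vascular and stromal classes, with the genes of every gate left out of the test. Against endothelial-gated barcodes, 258 of 11906 genes were higher and 348 lower in the baboon (2.17% and 2.92%, 5.09% together), and 103 and 109 of 11220 in the rhesus macaque (0.918% and 0.971%, 1.89% together). With the animal block these were 558 and 658, and 336 and 464. PDGFRB was higher by 7.67 in the baboon (643 and 348 CPM against 2.13 and 2.43) and by 6.03 in the rhesus macaque (1686 and 1090 against 12.2 and 14.3). IMPA2 was higher by 6.05 and 5.19. MEF2C did not differ beyond the spread in either species (0.38, adjusted p = 0.511, and 0.07, adjusted p = 1.00), nor did IGFBP7 (-0.47 and 0.20). NDUFA4L2 was higher in the baboon (7.62, adjusted p = 0.00115). Some mural genes called against all other barcodes also missed the threshold here. In the baboon MCAM was at 1.85 (adjusted p = 0.249) and FOXS1 at 4.91 (adjusted p = 0.0812), and both passed with the block (adjusted p = 0.000524 and 0.00212). The baboon EBF1, EDNRA and PGF also missed it (adjusted p = 0.0599, 0.0622 and 0.118) and passed with the block. CAV1 was at -1.835 in the baboon (adjusted p = 0.435). PTP4A3 was at 0.34 (adjusted p = 0.880) and 1.27 (adjusted p = 0.280) in the baboon and the rhesus macaque, and GJA4 at 0.31 (adjusted p = 0.780) and 1.68 (adjusted p = 0.270, and 0.0118 with the block). JAG1 was at -0.60 in the baboon (adjusted p = 0.781). Of the other Notch genes called there, NRARP was at 1.20 (adjusted p = 0.478) and MAML2 at 0.18 (adjusted p = 0.894). HES4 was at 2.29 (adjusted p = 0.160) and HEYL at 2.77 (adjusted p = 0.0502), and both passed with the block (adjusted p = 0.0301 and 0.000821). ESAM, an adhesion molecule of endothelial junctions, stood at 131 and 85.9 in the gated baboon barcodes and at 353 and 327 in the endothelial-gated ones (-1.77, adjusted p = 0.340, and 0.00841 with the block). The rhesus ESAM stood at 187 and 164 against 306 and 432 (-1.42, adjusted p = 0.458, and 0.00564 with the block). DLL4, the Notch ligand of arterial endothelium, was lower in the baboon (adjusted p = 0.00883, and 0.415 with classes gated after thinning), with no UMI in the gated barcodes against 68.1 and 74.2 CPM.

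Against stroma-gated barcodes, 202 genes were higher and 43 lower in the baboon (1.70% and 0.361% of those tested, 2.06% together), and 37 and 8 in the rhesus macaque (0.330% and 0.0713%, 0.401% together), or 518 and 305, and 178 and 125, with the block. ESAM was higher by 7.86 and 6.07, MEF2C by 3.29 and 3.11 and PTP4A3 by 5.41 and 3.93 in the baboon and the rhesus macaque. PDGFRB was higher by 3.30 in the baboon (adjusted p = 0.0493) and missed the threshold in the rhesus macaque (2.38, adjusted p = 0.142, and 0.000277 with the block). Against contractile-gated barcodes, 483 genes were higher and 200 lower in the baboon (4.06% and 1.68%, 5.74% together), but the contractile-gated barcodes of baboon 2 were deep (470 barcodes with a median of 15334.5 UMIs) and 31 of them kept at least 2 contractile genes after thinning to 1000 UMIs. With classes gated that way, chosen after seeing the data, 23 genes were called, NDUFA4L2 among them (3.31, adjusted p = 0.0425) and PDGFRB not (1.68, adjusted p = 0.258). In the rhesus macaque, 7 of 11220 genes were higher and none lower than in contractile-gated barcodes (0.0624% and 0.00%), or 116 and 49 with the block, and at an unadjusted p under 0.05 there were 922. They included COX4I2 (5.63), IMPA2 (5.03) and PTP4A3 (4.24), each with an adjusted p of 0.0250. With classes gated after thinning COX4I2 missed the threshold (4.83, adjusted p = 0.0739), and IMPA2 and PTP4A3 passed it (adjusted p = 0.0476 and 0.0363).

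Between the species, 9608 gene symbols were tested in both. Of the 260 that were higher in the baboon and the 122 in the rhesus macaque, 71 were higher in both (27.3% and 58.2%). Besides genes given above they included ITGA7, an integrin of muscle, PLXDC1, ENPEP, an angiotensin-cleaving peptidase of pericytes, ANO1, a calcium-activated chloride channel, and CRIP1. Of the 68 and 32 that were lower, 5 were lower in both, namely APOA1, HBB, ITGA6, PLA2G1B and PTGDS, of which ITGA6 alone was also called in the rhesus macaque under the block. ITGA6 had no UMI in the gated rhesus barcodes, against 21.7 and 37.6 CPM in the other barcodes of rhesus 1 and rhesus 2. It was called in 8 of 15 rhesus alternatives.

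**Figure D5:**
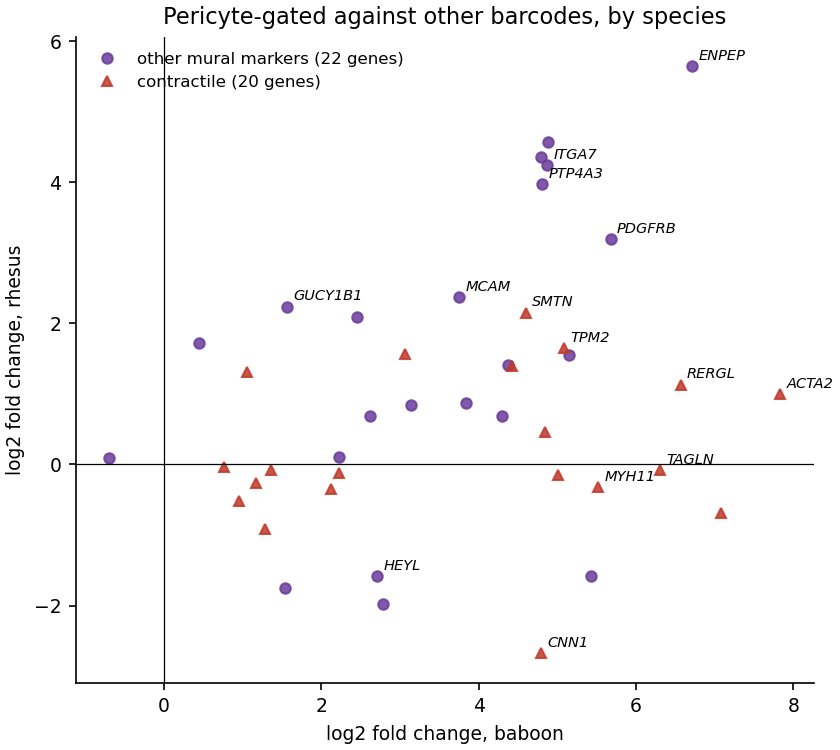
Fitted log2 fold change of pericyte-gated against all other barcodes in the baboon (x axis) and the rhesus macaque (y axis) for 22 mural and 20 contractile genes with a UMI in gated barcodes of both species. Contractile genes such as ACTA2, TAGLN and MYH11 lie far right near 0 on the y axis, and PDGFRB, PTP4A3 and ENPEP lie high on both axes.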

How the data were processed

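Dissociated testis cells were profiled by droplet-based 3′ RNA sequencing in 6 libraries of 4 animals. The authors deposited raw matrices of UMI counts for all barcodes, made with Cell Ranger 3.1.0 against Panubis1.0 for the baboon (34178 genes listed) and Mmul_10 for the rhesus macaque (21356 genes). Per the study's methods, Seurat 3.2.3 read and merged the matrices downstream and the human and mouse builds served data of those species. The deposited counts summed to 31074298 and 16875294 UMIs in baboon 1 A and B, 49803025 in baboon 2, 38106092 in rhesus 1 and 19675453 and 18806225 in rhesus 2 A and B, over barcodes with and without cells. Because reads were collapsed to UMIs without cell calling, free RNA and doublets remain in the barcodes, and no caller was run for either.

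Barcodes of at least 1000 UMIs were gated as the report describes. UMIs were summed per animal and class and tested with edgeR 4.0.16 (TMM, filterByExpr, quasi-likelihood F test, R 4.3.3), each species alone, 2 animals against 2 sums, with Benjamini-Hochberg adjustment over all genes tested and a threshold of 0.05. The 12 gate genes were left out against all other barcodes, and all 24 genes of the gates in the comparisons between classes. Standard errors were derived from the F statistic. Sums of the same animal are paired by the design, and their deviations from the group means correlated (0.351 over 15391 baboon genes and 0.214 over 11940 rhesus genes). The fit with the animal as a block was the alternative. CPM are relative to the summed UMIs of the class. Intervals are exact Clopper-Pearson intervals at 95% and cover counting error, as does the limit of 3 UMIs that a count of 0 allows. Gene positions and sequences came from RefSeq (Python 3.11.15, SciPy 1.17.1). The scripts were tested on simulated data.

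Among genes with at least 20 UMIs in the gated sum of each animal, the 15 with the largest rise and the 5 with the largest fall past the threshold were to be named. In the rhesus macaque only COX4I2 met this, and genes with the smallest p that did not pass were named beside it. Also named were the 4 most abundant genes of each of 27 lists, the gate genes, and genes opposite in sign between the species. Other members of a list and genes called in both species were chosen after their values were seen. The gate and the lists were chosen with earlier results of these data known. Alternatives in normalization, test (DESeq2 1.42.0), filter, gate, depth and replicates are given in the closing section. Some items are not reported here.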

Additional observations from a re-analysis of the deposited data

Results flagged for a closer look

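SERINC2, a serine incorporator gene, stood below the other barcodes in both baboons, without passing the test, and above them in both rhesus macaques. It stood at 17.9 and 4.29 CPM (3 and 1 UMIs) in the pericyte-gated barcodes of the baboons against 36.6 and 40.2 in the others (log2 fold change -2.09, adjusted p = 0.143), and at 656 and 807 against 94.2 and 77.1 in the rhesus macaques (2.71, adjusted p = 0.00967, and 0.513 with the animal block, edgeR). The exact permutation test of the difference over the 4 animals gave p = 0.333, the smallest it can give. PTOV1 was lower in both baboons, at 167 and 266 against 514 and 594 (-1.52, adjusted p = 0.0450), and above the other barcodes in both rhesus animals, at 468 and 314 against 370.3 and 299, although its fitted rhesus log2 fold change was -0.36 after scaling. The exact permutation p for PTOV1 was likewise 0.333.

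Barcodes of at least 500 but under 1000 UMIs were outside the comparisons, and 26 of 6629 in the baboon and 33 of 12196 in the rhesus macaque met the conditions of the pericyte gate.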

How the results depend on the processing

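With the animal as a replicate block, the genes called against all other barcodes numbered 1780 in the baboon, where 481 were called without it. The block gave 1216, 1784 and 823 genes against endothelial-gated, contractile-gated and stroma-gated barcodes in the baboon, and 800, 165 and 303 in the rhesus macaque. Without the block these were 606, 683 and 245, and 212, 7 and 45. Against all other barcodes in the rhesus macaque (193 genes), 126 were called at 2000 UMIs a barcode, 31 by DESeq2, 302 with the gate set after thinning, 325 with libraries as samples and 120 without replicate 2 or without replicate 3. In the baboon DESeq2 called 961, the thinned gate 766, libraries as samples 1076 and no filter on low counts 1132, and leaving out replicate 1 or 2 gave 410 to 696. For the baboon classes, in the same order, classes gated after thinning gave 396, 23 and 484, libraries as samples 1085, 1164 and 635, and no filter 1025, 1242 and 692. DESeq2 gave 1026 against contractile-gated and 530 against stroma-gated barcodes there, and leaving out a replicate gave 450 to 518, 477 to 578 and 178 to 185. For the rhesus classes, thinning gave 129, 13 and 78, libraries as samples 892, 208 and 314, and no filter 634, 197 and 303. DESeq2 gave 43 and 101 against contractile-gated and stroma-gated barcodes, and leaving out a replicate gave 99 to 118, 3 to 7 and 16 to 20. Libraries of 1 animal alone, whose spread is technical, gave 1509 genes in baboon 1 and 964, 1915, 778 and 1060 in rhesus 2 (all others and the 3 classes). The fits on 1 animal's libraries and the classes gated after thinning were chosen after seeing the data. The causes of these changes were not tested.

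The share of gated barcodes in baboon 1, baboon 2, rhesus 1 and rhesus 2 was 0.290%, 0.464%, 0.00961% and 0.441% with at least 3 of the 6 genes, and 0.332%, 0.570%, 0.00961% and 0.474% with a gate without RGS5. With the thinned gate it was 0.346% in baboon 1, 0.477% in baboon 2 and 0.955% in rhesus 2, which stood at 1.81% at 2000 UMIs. By library, baboon 1 ranged from 0.319% to 0.570% and rhesus 2 from 1.24% to 1.46%. Of the named genes called against all other barcodes, 46 of 58 in the baboon and 8 of 33 in the rhesus macaque were called in every alternative with a test. The 8 were ANO1, COX4I2, CRIP1, GJA4, IMPA2, PLXDC1, PTP4A3 and SLC12A2. DLL4 in the baboon went from -8.18, without a UMI in the gated barcodes, to 4.30 with the thinned gate, and FOS in the rhesus macaque from -0.03 to 0.70 with both libraries of rhesus 2 alone. Leaving out baboon 2 or rhesus 1, each a single library, left 1 animal and no test against all other barcodes, and was not run for the classes. The gated barcodes of rhesus 1 held 10673 UMIs, which enter every rhesus comparison over both animals.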
